A study of Mus musculus with 20 samples.

Results

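Tumours of the organoid line MTO140, which the labels type as LiM, were set against tumours of MTO68 and MTO93, which they type as parental. MTO140 gave 4 of the series' 20 tumours, and all 4 were taken by their type label. The parental LAKTP lines gave 8 tumours, 4 from each line. MTO lines are mouse tumour organoids, and RNA came from fragments of whole caecum tumours in C57BL/6J mice, with 1 array per tumour.

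All 3 lines carry the genotype LAKTP, whose letters the labels do not spell out. LiM is read here, as background, as a line grown from a liver metastasis. Each line gave 2 tumours from mice given galunisertib, a TGF-beta receptor kinase inhibitor, at 10 mg 2 times per day by gavage from day 11 until sacrifice at week 5, and 2 tumours from control mice. MTO140 organoids were injected under the serosa of the caecum as intact spheroids, grown for 3 days in 30% basement membrane extract. The parental lines were first grown under the skin and then transplanted onto the caecum as pieces of 1 mm3. Each line was also hybridised on a strip of its own. Line, strip and route of implantation cannot be told apart in any result, and LiM is represented by a single line. The 2 tumours of a group are biological replicates, so p-values measure the spread between tumours and not the spread between LiM lines. In the comparison with both parental lines together, this spread also holds the difference between MTO68 and MTO93. The fits by line and by treatment arm take that difference out. The other 8 tumours of the series came from the parental lines MTO54 (genotype LAKP) and MTO207 (genotype LAKT). Each of these lines also gave 2 galunisertib and 2 control tumours. They are used for values given by line, for the comparison with all 16 other tumours and for the fit of all 20 arrays.

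Absorptive colonocytes are the differentiated surface cells of the colon, with a brush border, ion exchangers and carbonic anhydrases. Their programme is known to depend on the transcription factors CDX2 and HNF4A, and it opposes the stem and progenitor programme that Wnt signalling maintains at the base of the crypt. Loss of APC is known to hold Wnt signalling on in intestinal tumours. In whole-tumour RNA, fewer cells of a type and less RNA per cell cannot be told apart.

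Values are log2 intensities, and a difference of 1 is a doubling. Array medians were close, but the spread of an array's values (its SD) moved with the line: it ran from 1.66 to 1.83 in MTO140, from 1.47 to 1.82 in MTO68 and from 1.52 to 1.60 in MTO93. MTO68 control replicate 2 had the SD of 1.47. The first principal component of the 12 arrays held 50.4% of the variance and had a correlation of -0.963 with array SD. Its part in the results below was not tested apart from the fit with array SD as a covariate.

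Of 15400 genes tested with limma, 480 were higher in MTO140 than in the parental tumours (3.12% of genes tested) and 67 were lower (0.435%) at an adjusted p under 0.05. All 547 had 1 sign in the 4 differences of group means (against each parental line, in each treatment arm). Of all genes tested, 2543 showed this pattern upward (16.5%) and 1993 downward (12.9%). Calls and differences come from the same values, so the shared sign adds no support to the calls. The median difference over all genes was -0.04. After quantile normalization the split was 398 higher and 117 lower, with array weights 3974 higher and 3751 lower, and with array SD as a covariate 1190 higher and 1510 lower, where lower genes outnumbered higher ones. This count rested on single tumours: it fell to 35 without MTO140 control replicate 1, 73 without MTO140 galunisertib replicate 2, 189 without MTO140 galunisertib replicate 1 and 221 without MTO93 control replicate 1. It was 326 and 351 without MTO93 galunisertib replicates 1 and 2, and 342 without MTO68 galunisertib replicate 2. With the line as a random block, 2 genes were called, Pgap1 (adjusted p = 0.0141) and Sec16b (adjusted p = 0.0346, both limma). That fit allows for a correlation of 0.346 between tumours of a line, and tumours remain its unit.

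Against MTO68 alone, 780 genes were higher in MTO140 (5.06%) and 674 lower (4.38%). Against MTO93 alone, 393 were higher (2.55%) and 144 lower (0.935%), although 5436 genes had an unadjusted p under 0.05. The MTO93 count ranged from 8 to 6587 when 1 array was left out, and it moved by over 1.5 times without 10 of the 12 arrays. The lowest count came without MTO93 galunisertib replicate 2 and the highest without MTO68 control replicate 2, which was also the array behind the highest MTO68 count, 3215. The 2 parental lines themselves differed at 1764 genes (11.5%). Called in the type comparison and against both parental lines were 225 genes higher in MTO140 (1.46%) and 20 lower (0.13%), a rule chosen after the values were seen.

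Within the galunisertib arm 111 genes were higher in MTO140 (0.721%) and 124 lower (0.805%). Within the control arm 19 were higher (0.123%) and 11 lower (0.0714%). With 2 MTO140 tumours in an arm, these counts moved between 9 and 718 in the galunisertib arm and between 4 and 4639 in the control arm as single arrays were left out. The plot of the difference from each parental line shows where the genes called by each rule lie.

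**Figure D1:**
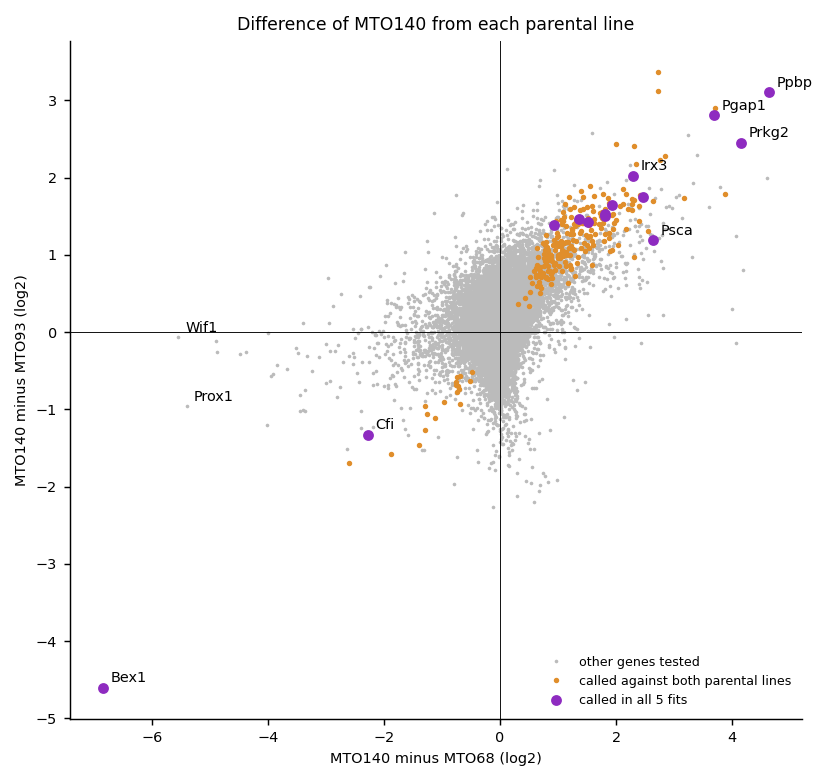
Each point is 1 of 15400 genes, with the MTO140 minus MTO68 difference on the x axis and the MTO140 minus MTO93 difference on the y axis (log2). Purple points are the 14 genes called in all 5 fits and orange points are other genes called against both parental lines; Bex1 lies at -6.84 and -4.60, while Wif1 lies at -5.55 against MTO68 and -0.06 against MTO93.

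Passing all 5 fits (the type comparison, each parental line and each arm) with 1 sign were 14 genes (0.0909%), 12 higher and 2 lower. In all 14 the 4 MTO140 tumours lay outside the 8 parental tumours, as they did above them for 597 of all genes tested (3.88%) and below them for 271 (1.76%). The 14 were chosen on these same values, so their separation adds no support. The number passing all 5 fits was 156 without MTO68 control replicate 1, 34 without MTO140 control replicate 2 and 32 without MTO68 control replicate 2. It was 3 without MTO140 control replicate 1 or galunisertib replicate 2, 4 without MTO93 galunisertib replicate 2, 5 without MTO93 control replicate 1 or galunisertib replicate 1, and 9 without MTO140 galunisertib replicate 1. In the type comparison alone, between 12 and 14 of these 14 genes remained called whichever array was left out, on the values that chose them.

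The largest rise was in Ppbp, a chemokine (CXCL7) released by platelets. It measured 8.90 and 10.09 in galunisertib-treated and 10.00 and 9.05 in control MTO140 tumours, against 4.57 to 5.22 in MTO68 and 5.71 to 7.77 in MTO93. Every MTO140 tumour was above every parental tumour, with a difference of 3.87 ± 0.52 (SE, limma adjusted p = 0.0056). Other platelet genes did not pass: Pf4, another platelet chemokine, differed by 0.44, Gp9 by -0.11 and Itga2b by 0.23, the last pair being platelet receptor subunits.

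Prkg2 encodes the cGMP-dependent kinase of intestinal epithelium. It measured 9.50 and 9.29 in galunisertib-treated and 9.56 and 9.28 in control MTO140 tumours, against 4.59 to 5.93 in MTO68 and 6.63 to 7.25 in MTO93 (difference 3.30 ± 0.48 (SE), limma adjusted p = 0.00749). The MTO140 tumours were nearly level, and MTO93 lay between them and MTO68. High values also occurred in the parental LAKP line MTO54, where Prkg2 measured 9.10 to 10.77 and Ppbp 7.23 to 9.50.

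Pgap1 trims the lipid anchor of GPI-linked surface proteins, and Psca is such a protein. Pgap1 measured 8.21 and 7.57 in galunisertib-treated and 8.18 and 7.45 in control MTO140 tumours, against 3.84 to 4.57 in MTO68 and 4.83 to 5.33 in MTO93. The difference of 3.25 ± 0.28 (SE, limma adjusted p = 0.00044) was over 2 in each of the fits against a single line. Psca measured 7.33 to 7.74 in MTO140, against 4.50 to 5.27 in MTO68 and 6.02 to 6.74 in MTO93, a difference of 1.92 ± 0.39 (SE, limma adjusted p = 0.0255). Psca missed the threshold in 7 of 26 alternative settings.

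Among regulators, Irx3, a homeobox transcription factor, was 2.16 ± 0.26 higher (SE) and Fkbp5, a glucocorticoid-induced co-chaperone of steroid receptors, 2.11 ± 0.27 higher. Irx3 measured 7.14 to 7.59 in MTO140, against 4.69 to 6.02 over the 8 parental tumours. Fkbp5 measured 8.47 to 9.65 in MTO140, against 6.13 to 7.40 in the parental tumours. Neither overlapped between the groups. A second probe set of Fkbp5 was higher by 1.31, and the remaining one was below 4.13, the filter level for dim genes, in both groups.

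Both Fbp2, a fructose bisphosphatase, and Eno3, an enolase, act in sugar metabolism and were higher by 1.65 and 1.16. Eps8, an actin-capping protein of microvilli, was higher by 1.41, Zdhhc21, a palmitoyltransferase, by 1.67, and Sowahb by 1.79. Sec16b, which organises exit sites of the endoplasmic reticulum, was a dim gene at 4.81 to 5.54 in MTO140, against 3.62 to 3.81 in the parental tumours, with a difference of 1.47 ± 0.11 (SE, limma adjusted p = 0.000261). All 8 parental values of Sec16b lay below 4.13, and against that level it was at least 1.05 higher in MTO140.

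Bex1, an X-linked gene best known from brain, fell. It measured 3.57 and 3.23 in galunisertib-treated and 4.02 and 3.45 in control MTO140 tumours, against 10.20 to 10.70 in MTO68 and 6.97 to 10.39 in MTO93. The difference was -5.72 ± 0.73 (SE, limma adjusted p = 0.00457), and no MTO140 tumour overlapped the parental ones. All 4 MTO140 values lay below 4.13, the filter level for dim genes, which is a percentile of the array values and not a detection call. Taken as the lowest level that can be read, it gives a difference of at least 5.16 in Bex1. Outside the LAKTP lines, Bex1 did not follow type: the parental LAKP line MTO54 measured 3.14 to 3.30 and the parental LAKT line MTO207 9.67 to 10.51. Cfi, the complement factor I protease, measured 4.25 to 4.47 in MTO140, against 5.02 to 7.18 in the parental tumours (difference -1.80 ± 0.32 (SE), limma adjusted p = 0.0169). Of the 14 genes, 7 separated MTO140 from all 16 other tumours of the series: Eps8, Fbp2, Fkbp5, Pgap1, Psca, Sec16b and Sowahb. Over all genes tested, 333 lay above all 16 (2.16%) and 91 below (0.591%). The 16 include the 8 parental LAKTP tumours on which the 14 genes were chosen.

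**Figure D2:**
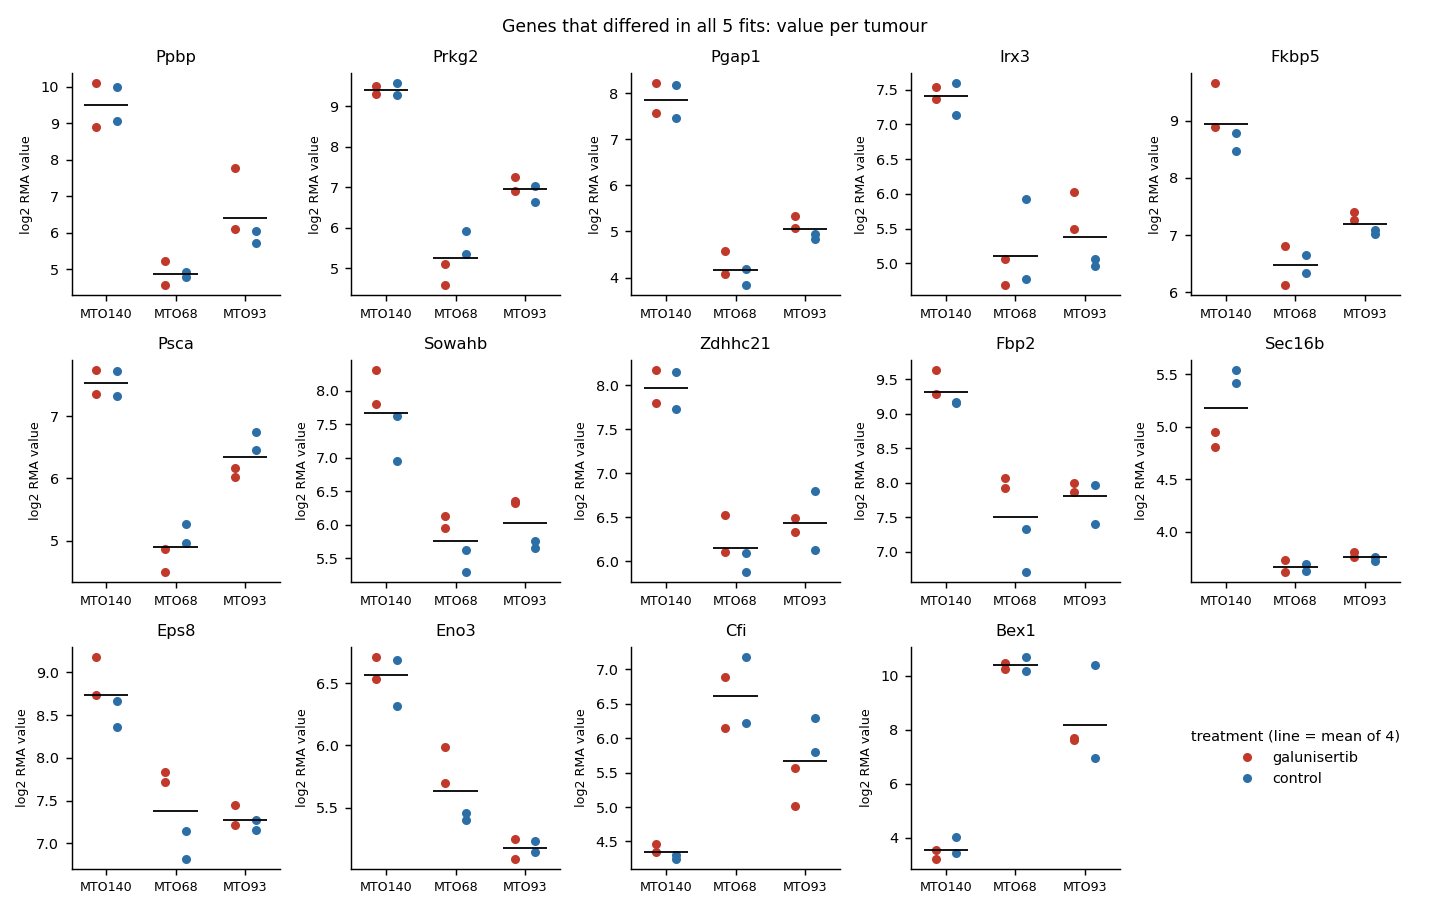
Log2 value of the 14 genes that passed all 5 fits in each of the 12 LAKTP tumours, with MTO140 left of the parental lines, galunisertib in red and control in blue; horizontal lines are means of 4 tumours. In every panel the MTO140 tumours lie outside the 8 parental tumours, and 1 control tumour of MTO93 lies at 10.39 for Bex1 while the other MTO93 tumours lie between 6.97 and 7.70.

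Genes of absorptive colonocytes were higher in MTO140 as a list. Of 25 tested, 22 were higher in all 4 differences of group means and 2 lower, beside 16.5% and 12.9% of all genes tested. The median difference was 1.77 beside -0.04 over all genes, and 6 were called higher in the type comparison, beside 3.12% of all genes. The same shares are the background of the lists that follow. Against MTO68 18 were higher and 1 lower, with a median of 2.23. Against MTO93 3 were higher, with a median of 1.25. The mean level of the list was 8.09 to 9.25 in MTO140, against 6.35 to 7.64 in MTO68 and 6.72 to 8.12 in MTO93, so the lowest MTO140 tumour overlapped MTO93. No member passed all 5 fits.

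The 6 called genes were Car2, a carbonic anhydrase (2.00), Ceacam20, a brush border adhesion protein (1.89), Cdhr5, a cadherin that links microvilli (1.85), Alpi, intestinal alkaline phosphatase (1.80), and Slc51b and Slc51a, the subunits of the basolateral bile acid exporter (1.77 and 1.08). Alpi measured 6.31 and 7.10 in galunisertib-treated and 7.43 and 4.82 in control MTO140 tumours, against 4.11 to 4.65 in MTO68 and 4.67 to 5.09 in MTO93. One control MTO140 tumour thus lay inside the parental range. The 6 genes were called in 13 (Car2) to 21 (Slc51b) of the alternative settings. Cdhr2, the binding partner of CDHR5, differed by 2.63 but missed the threshold (limma adjusted p = 0.0517), as did Krt20, a keratin of surface cells (1.84, adjusted p = 0.0815). Slc9a3, a sodium-proton exchanger, differed in the opposite direction at -0.76.

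**Figure D3:**
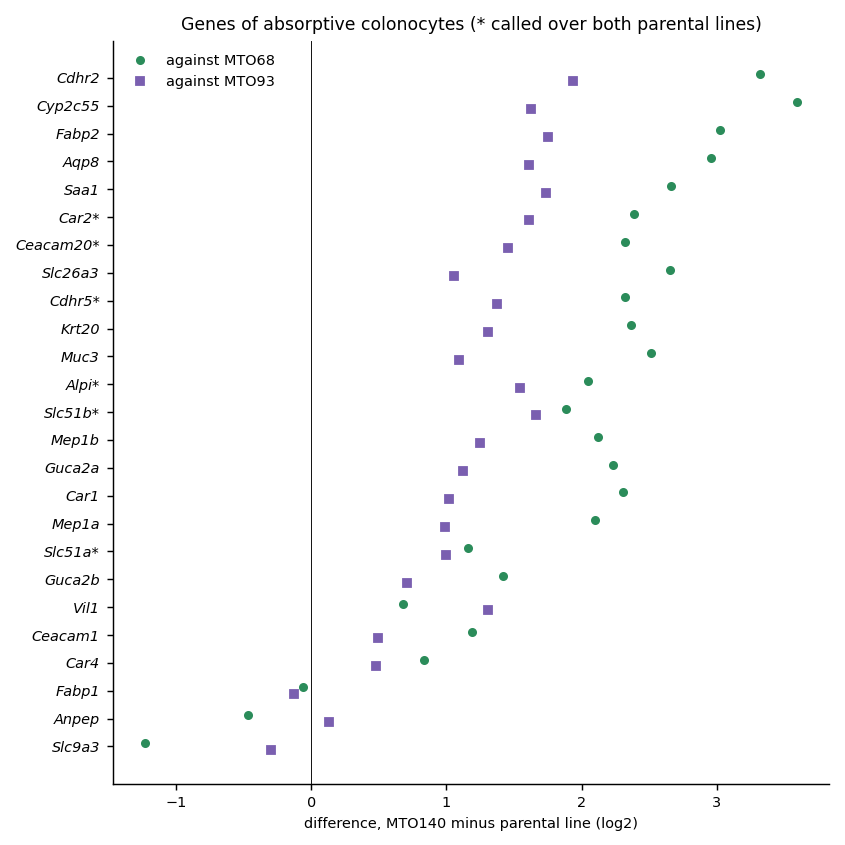
The 25 colonocyte genes tested, ordered by their difference over both parental lines, with the MTO140 minus MTO68 difference (circles) and the MTO140 minus MTO93 difference (squares) in log2 units. Most points lie right of 0 against both lines, Slc9a3 and Fabp1 lie left of it against both, and asterisks mark the 6 genes called.

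The promoters of 3 called colonocyte genes are shown because they hold a motif of the CDX or HNF4 factors. Each runs from 250 bases before to 50 bases after the start in RefSeq (GRCm38.p6), with CAAAGTC (an HNF4 half-site motif) or TTTATNG (a CDX motif), on either strand, in capitals.
Alpi, chr1:87101557-87101856, minus strand: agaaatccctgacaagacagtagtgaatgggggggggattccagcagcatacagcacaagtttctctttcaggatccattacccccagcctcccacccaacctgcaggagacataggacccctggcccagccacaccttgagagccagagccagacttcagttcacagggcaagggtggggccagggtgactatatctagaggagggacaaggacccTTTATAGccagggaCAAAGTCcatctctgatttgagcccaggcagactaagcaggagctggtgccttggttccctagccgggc
Slc51a, chr16:32487830-32488129, minus strand: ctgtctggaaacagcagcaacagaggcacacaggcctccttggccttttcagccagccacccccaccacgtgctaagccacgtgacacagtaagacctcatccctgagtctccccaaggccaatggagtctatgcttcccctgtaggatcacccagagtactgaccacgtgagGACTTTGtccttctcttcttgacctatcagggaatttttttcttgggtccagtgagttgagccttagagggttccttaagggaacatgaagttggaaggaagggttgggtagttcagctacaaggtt
Ceacam20, chr7:19965162-19965461, plus strand: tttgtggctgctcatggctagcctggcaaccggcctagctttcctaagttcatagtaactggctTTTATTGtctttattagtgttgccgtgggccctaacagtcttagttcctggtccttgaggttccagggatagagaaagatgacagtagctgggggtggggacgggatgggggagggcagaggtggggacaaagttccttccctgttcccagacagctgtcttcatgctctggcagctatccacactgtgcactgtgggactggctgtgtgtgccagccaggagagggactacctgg
Of the 6 called genes, 5 had a promoter sequence, and those of Cdhr5 and Slc51b held neither motif. Over all 32851 RefSeq promoters of this length, 4.44% held the HNF4 motif and 10.9% the CDX motif. Over the 12258 genes tested that had a promoter sequence, the shares were 4.94% and 9.54%. Of 22 colonocyte genes tested that had a promoter sequence, 3 held the HNF4 motif and 9 the CDX motif. A match of letters is a description and does not show binding.

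The transcription factors Cdx2 and Hnf4a were called against both parental lines. Cdx2 measured 9.46 and 9.16 in galunisertib-treated and 9.24 and 9.04 in control MTO140 tumours, against 6.14 to 7.10 in MTO68 and 7.40 to 8.09 in MTO93 (difference 1.93 ± 0.37 (SE), limma adjusted p = 0.0214). Hnf4a measured 9.86 to 10.31 in MTO140, against 7.74 to 8.51 in MTO68 and 7.84 to 9.22 in MTO93 (difference 1.68 ± 0.28 (SE), limma adjusted p = 0.0128). Neither gene overlapped between groups. Cdx2 lost its call in the type comparison under quantile normalization (adjusted p = 0.0832) and Hnf4a with all 20 arrays in 1 fit (adjusted p = 0.0571). Within single arms Cdx2 passed in the galunisertib arm (adjusted p = 0.0211) and missed in the control arm (adjusted p = 0.0627), and Hnf4a missed in both. Pparg, a nuclear receptor of surface colonocytes, was higher by 1.75 and Cdx1 by 1.96, and both were called in the type comparison; Pparg lost its call under quantile normalization (adjusted p = 0.0564) and Cdx1 was called in 14 of 26 alternative settings.

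Of the 14 genes tested for colon identity and patterning, these 3 (Cdx1, Cdx2 and Hnf4a) were the ones called and the median difference was -0.13. In all 4 differences, 4 of the 14 were higher and 5 lower. The list of Paneth cells and small intestine was also higher, with a median of 0.88. Of its 10 genes tested, 6 were higher and 1 lower in all 4 differences, and 0 were called. Prox1, a homeobox gene of intestinal tumour progenitors, measured 3.96 to 4.35 in MTO140, against 9.19 to 9.93 in MTO68 and 4.27 to 5.94 in MTO93. It separated MTO140 from MTO68 (-5.40, limma adjusted p = 8.12e-06) and not from MTO93 (-0.96, adjusted p = 0.077).

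Secretory cell lists did not all move alike. Of 19 tested for goblet, tuft and enteroendocrine cells, 14 were higher in all 4 differences and none lower, with a median of 0.50 and 3 called: Agr2, a goblet cell disulfide isomerase (1.33), Atoh1, the transcription factor that sets secretory fate (1.04), and Chgb, a granule protein of enteroendocrine cells (1.43). The list of mucins, trefoils and other secreted proteins had a median of 0.07, with 6 of 18 higher and 3 lower in all 4 differences, 2 called higher (Agr2 and Retnlb), and a median of -0.08 against MTO93. Of 23 general epithelial genes, 16 were higher in all 4 differences, with a median of 0.62 and 3 called: the adhesion protein Epcam (0.53), the tight junction gene Cldn3 (0.95) and the splicing regulator Esrp1 (0.96). Of 26 alternative settings, Esrp1 was called in 9, Agr2 in 10, Epcam in 11, Atoh1 in 14, Cldn3 in 15 and Chgb in 18. The mean level of the epithelial list was 9.15 to 9.59 in MTO140, against 8.12 to 9.17 in MTO68 and 8.75 to 8.86 in MTO93. This level moved with the colonocyte result and with the line: with it as a covariate no gene was called in the type comparison, and the colonocyte median was 0.65.

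**Figure D4:**
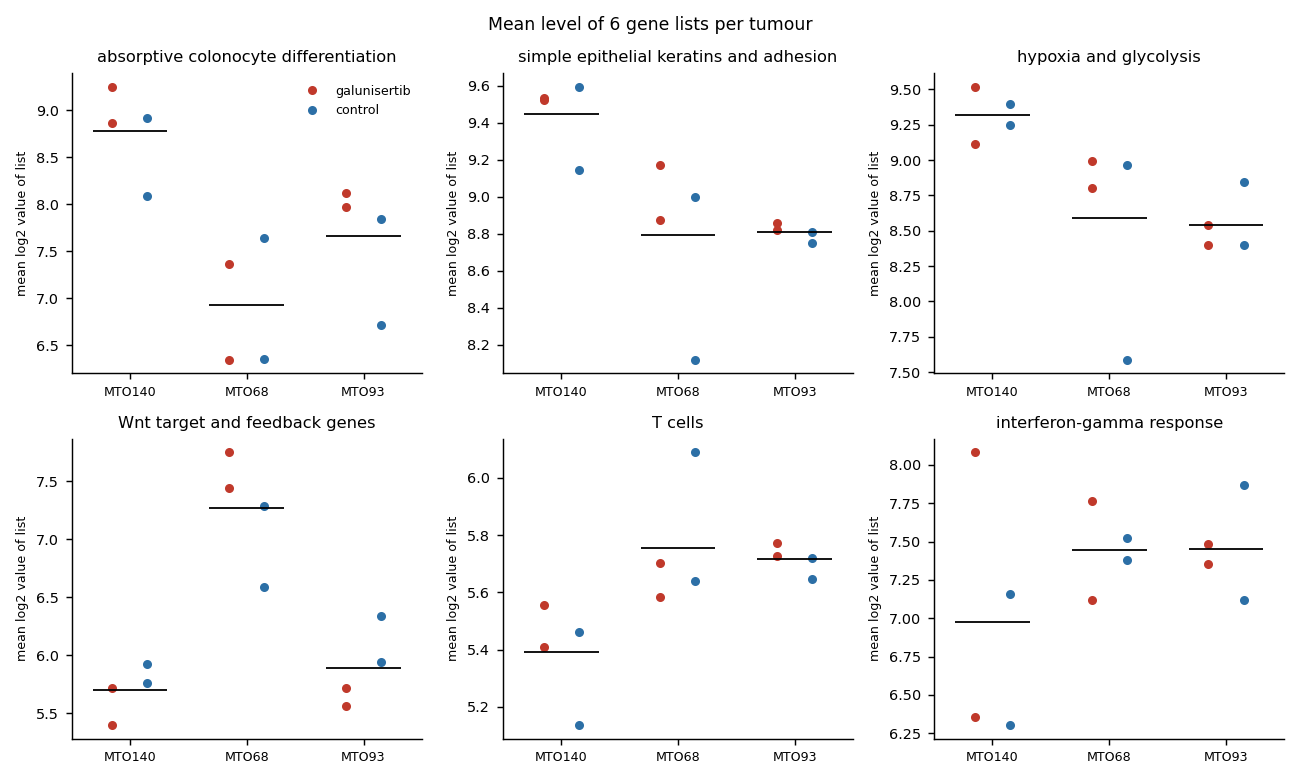
Mean log2 value of 6 gene lists in each of the 12 LAKTP tumours, with MTO140 left of the parental lines, galunisertib in red, control in blue and the mean of 4 tumours as a line. Mean colonocyte and epithelial levels are highest in MTO140. Its lowest tumour overlaps MTO93 for colonocyte genes (8.09 against 8.12) and MTO68 for epithelial genes (9.15 against 9.17). Wnt target levels are 5.40 to 5.92 in MTO140, 6.59 to 7.75 in MTO68 and 5.56 to 6.34 in MTO93. The interferon-gamma list spreads from 6.30 to 8.08 within MTO140.

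Genes of xenobiotic metabolism included several large single differences. Of 19 tested, 11 were higher in all 4 differences and 1 lower, the median was 0.71, and Cyp3a13, Akr1c13, Nqo1 and Sult1d1 were called higher. Acaa1b, a peroxisomal thiolase, Gsta2, a glutathione transferase, and Abcg2, an efflux pump, were chosen after their values were seen from the genes called against both lines. Acaa1b measured 8.11 and 9.44 in galunisertib-treated and 7.68 and 6.49 in control MTO140 tumours, against 3.69 to 5.67 over the parental tumours, a difference of 3.30 ± 0.48 (SE, limma adjusted p = 0.00749). Gsta2 was higher by 2.56 and Abcg2 by 2.00.

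Hypoxia and glycolysis genes were higher in all 4 differences for 11 of 15 tested, with a median of 0.56 and 3 called: Vegfa, the endothelial growth factor (0.98), Hk2, a hexokinase (1.02), and Ankrd37 (0.83). The hypoxia median was 0.27 with array SD as a covariate and -0.26 with the epithelial level, and Hk2 was called in 12 of 26 alternative settings. Of 16 genes of RAS-ERK output, 11 were higher in all 4 differences and 1 lower, with a median of 0.66, and Spry4, a feedback inhibitor (1.30), and Egr1, an immediate early factor (1.16), were called. Immediate early and heat shock genes moved with them. Of 12 in that list, 7 were higher in all 4 differences, the median was 0.40, and Fos (1.70), Junb (0.92), Egr1 and Hspa1b (1.93) were called; their level was 6.82 to 7.45 in MTO140, against 5.85 to 7.06 in MTO68 and 6.11 to 6.43 in MTO93. Egr1 stands in both lists, and whether tissue handling had a part in either was not tested.

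Wnt target and feedback genes had a median difference of -0.55, with 10 of 20 lower in all 4 differences and none higher. The list separated MTO140 from MTO68, against which 10 genes were lower (median -1.19), and none was called against MTO93 (median -0.21) or in the type comparison. Wif1, a secreted Wnt antagonist, measured 3.26 to 3.43 in MTO140, against 7.80 to 10.76 in MTO68 and 3.38 to 3.47 in MTO93, below 4.13 in both MTO140 and MTO93. Axin2, a feedback inhibitor, measured 6.61 to 7.75 in MTO140, against 7.64 to 9.38 in MTO68 and 6.76 to 7.96 in MTO93. Of 16 stem cell genes tested, 6 were lower and 3 higher in all 4 differences. Their median was -0.36, with 0 called in the type comparison. By line the stem cell median was -0.30 against MTO68 and -0.07 against MTO93. Lgr5, a receptor of crypt stem cells, differed by -2.01 from MTO68 (limma adjusted p = 0.00623) and by -0.69 from MTO93 (adjusted p = 0.176), and Smoc2 by -4.88 and -0.26.

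Lymphocyte, dendritic cell, macrophage and MHC lists had medians below 0 with few calls (the macrophage median was 0.04 against MTO93), while the list of neutrophil and acute phase genes lay at 0.15 with none called. The T cell list lay at a median of -0.32. Limma called 0 of its 12 genes, though 8 were lower in all 4 differences (over all genes tested, 0.435% were called lower and 12.9% were lower in all 4), and their mean level was 5.14 to 5.56 in MTO140, against 5.58 to 6.09 in MTO68 and 5.65 to 5.77 in MTO93. Cd8a, of cytotoxic T cells, measured 5.46 to 5.92 in MTO140, against 5.43 to 6.79 in the parental tumours, and the groups overlapped. For MHC class II the median was -0.50 and 7 of 10 genes were lower in all 4 differences, and H2-Aa differed by -0.56 (limma adjusted p = 0.133). Interferon-gamma response genes had a median of -0.64 with no call, and MTO140 tumours spread widely: Iigp1, an interferon-induced GTPase, measured 9.46 and 6.06 in galunisertib-treated and 6.49 and 8.51 in control MTO140 tumours, against 8.36 to 9.58 in the parental tumours. Of 17 type I interferon genes, 9 were lower against MTO68 (median -0.91), and against MTO93 none was lower and Oasl1 was higher (median 0.23). Oasl1 was also called higher in the type comparison and Mx1 lower. Cd274, the checkpoint ligand PD-L1, differed by -0.39 (limma adjusted p = 0.28). With the epithelial level as a covariate, several of these medians moved to near or above 0. They were 0.07 for T cells, 0.015 for dendritic cells, 0.14 for B and plasma cells and -0.007 for cytotoxic lymphocytes. In that fit MHC class II lay at -0.10, MHC class I at -0.33, interferon-gamma response at -0.66 and macrophages at -0.85.

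Stromal and TGF-beta lists held from 0 to 3 called genes each, beside 3.12% called higher over all genes tested. TGF-beta response genes had a median of 0.37 with 0 of 19 called, collagen and matrix genes 0.19 with 0 of 29, and fibroblast genes 0.22 with 1 of 17, Dpep1. Among BMP pathway genes 3 of 15 were called higher (Bmp4, Bmp8b and Smad6), among endothelial genes 2 of 18 (Cldn5 and Robo4) and among basement membrane genes 1 of 15 (Col18a1). Hepatocyte genes, examined since the line is read as derived from liver metastasis, had a median of -0.03 with 0 of 13 called, and their level was 5.30 to 5.76 in MTO140, against 4.86 to 5.74 in MTO68 and 5.55 to 5.63 in MTO93. The hepatocyte median changed sign in 6 of 26 alternative settings, median centring and quantile normalization among them, and the cell cycle median (-0.02) in 7 of 26. With the epithelial level as a covariate the medians were -0.48 for TGF-beta response, -0.67 for matrix and -0.53 for fibroblast genes. Hba-a1 and Hbb-b2, which encode the haemoglobin of red blood cells, were higher by 2.92 and 3.05 (limma adjusted p = 0.00991 and 0.0115). The list of red blood cells and platelets had a median of 0.29. Of its 7 genes tested, 3 were higher in all 4 differences and 2 were called, Hba-a1 and Ppbp. Alas2, also on that list, measured 4.48 to 5.32 in MTO140, against 4.40 to 6.01 in the parental tumours, and overlapped.

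**Figure D5:**
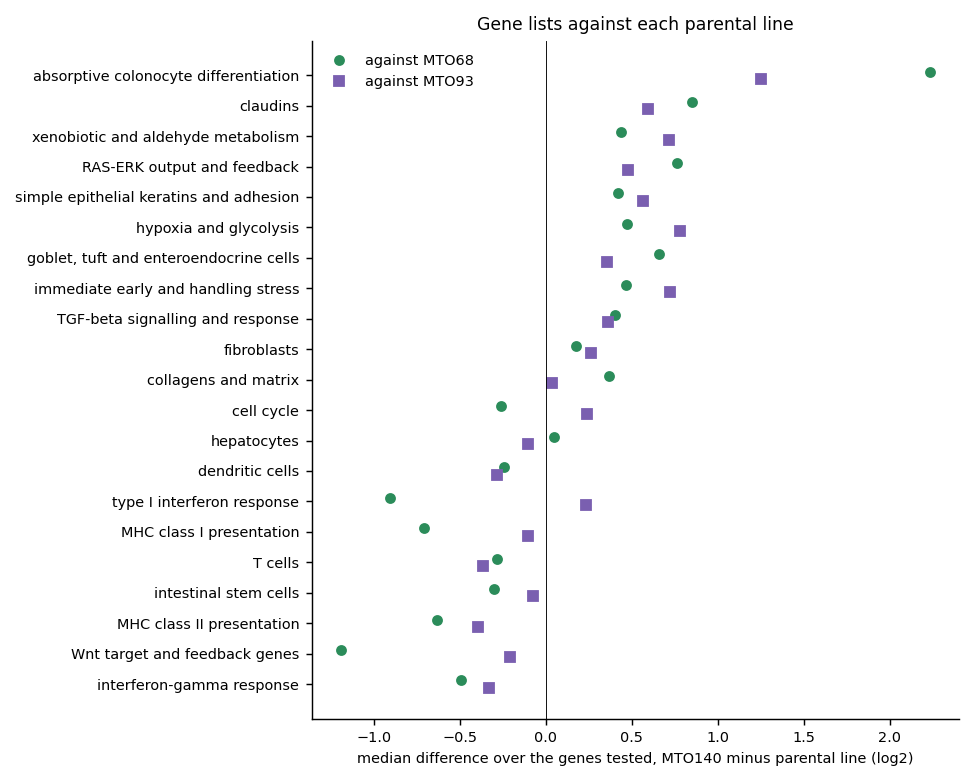
Median difference of 21 gene lists in log2 units, MTO140 minus MTO68 (circles) and MTO140 minus MTO93 (squares), over the genes tested. The colonocyte list lies at 2.23 and 1.25, the Wnt list at -1.19 and -0.21, and the type I interferon list on opposite sides of 0 at -0.91 and 0.23.

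Tgfbr2, a TGF-beta receptor, and Apc, a Wnt pathway inhibitor, overlapped between the groups. Tgfbr2 measured 8.13 to 8.65 in MTO140, against 6.72 to 8.81 in the parental tumours, and Apc 7.64 to 8.07, against 7.06 to 8.35. These probe sets need not lie in an altered part of either gene, so they check nothing about the alleles.

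Cadm1, Plagl1 and Hmga2, lower in MTO140, were chosen after their values were seen, from the 20 called lower against both lines. Cadm1, a cell adhesion molecule, measured 4.98 to 5.23 in MTO140, against 5.75 to 8.24 in the parental tumours (difference -2.15 ± 0.35 (SE), limma adjusted p = 0.0122). Plagl1, an imprinted zinc finger gene, differed by -1.73 and Hmga2, a chromatin protein of fetal tissue and tumours, by -1.42, and neither overlapped between the groups.

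The effect of galunisertib was compared between MTO140 and the parental lines. No gene of 15400 passed (0%, limma, smallest adjusted p = 0.911), and 396 had an unadjusted p under 0.05. Without single arrays 0 to 4 genes passed. The smallest p values belonged to Igfbp2, Kcnj8, Map2k6, Ints6 and Tbccd1. Igfbp2, an IGF-binding protein, measured 5.09 and 5.04 in galunisertib-treated and 7.08 and 7.05 in control MTO140 tumours, while the galunisertib-treated parental tumours measured 4.66 to 5.27 and their controls 5.60 to 5.85. The difference between the effects was -1.30 ± 0.23 (SE), and it did not pass adjustment.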

How the data were processed

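The values were the deposited log2 intensities per probe set. The authors made them with RMA (affy), per the submitters' processing notes, which give no versions. RMA is a background correction followed by quantile scaling of probes and a summary per probe set. The table held 45141 probe sets, of which 28898 named a single gene and 551 several; symbols were updated through Entrez IDs for 28689. A gene was represented by its brightest probe set over the 12 arrays (17097 genes). Testing was limited to the 15400 genes above 4.13, the 25th percentile, on 2 or more arrays. The number of arrays limits precision.

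Differences were fitted with limma (version 3.58.1, R version 4.3.3) using lmFit and eBayes with an intensity trend. The designs were type plus treatment, line plus treatment, and 6 group means for the arms and the difference in galunisertib effect. Tests were two-sided and p-values were adjusted by the Benjamini-Hochberg method across the genes tested. A gene passed all 5 fits with an adjusted p under 0.05 in each and 1 sign in the 4 differences of group means. The rule for named genes took up to 15 of these in each direction, list members (5 that passed all fits, or 2 of smallest p), the 5 smallest p of the galunisertib comparison and a short set that includes Tgfbr2, Apc, Lgr5 and Cd274. Text covers those of the lists it describes; others were chosen after their values were seen. Members and the 49 lists were chosen with earlier results of these data known.

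The fit was tested on simulated data with 15400 genes. In the type comparison it called 17.9% of those shifted by 0.5, 62.3% of those shifted by 1 and 85.9% of those shifted by 2, with 8 false calls. The simulated noise was independent between genes and between arrays and held no line effect. These rates and false calls therefore need not hold for the data themselves. Alternatives were filters, probe set choice, scaling, weights, all 20 arrays, line terms and omission of each array. Array SD and epithelial level as covariates and the rule on both parental lines were added after seeing the data. Plots used matplotlib 3.10.9, and promoter sequences came from RefSeq (GRCm38.p6).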

Additional observations from a re-analysis of the deposited data

Results flagged for a closer look

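Of 207 sets of 4 tumours of 1 line examined for the genes named and for array SD, 14 had a tumour far from the other 3 by Dixon's test at the 95% level. Chance flags about 1 in 20 such sets. Control replicate 1 of MTO93 stood apart at Car2 (6.69), Cdhr2 (6.37) and Cdx2 (7.40), where it was low, and at Tgfbr2 (8.81), where it was high. Control replicate 2 of MTO93 stood apart at Ankrd37 (6.04) and Ints6 (5.29), low in both. In MTO68, control replicate 2 was low at Cldn3 (8.19) and Tgfbr2 (6.72), galunisertib replicate 1 was low at Atoh1 (3.75) and Lgr5 (6.49), and galunisertib replicate 2 was high at Agr2 (8.42). In MTO140, galunisertib replicate 2 was high at Car2 (9.93), galunisertib replicate 1 was low at Hba-a1 (10.87) and control replicate 1 was low at Slc9a3 (4.59).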

How the results depend on the processing

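No paired analysis was possible because the replicate numbers follow accession order and name no shared animal, litter or day. Counts of called genes depended on single arrays more than on filters or probe set choice. Leaving out 1 array gave 35 to 570 genes in the type comparison, 783 to 3215 against MTO68, 8 to 6587 against MTO93, 9 to 718 in the galunisertib arm, 4 to 4639 in the control arm, 3 to 156 that passed all 5 fits, 8 to 440 against both parental lines, and 0 to 4 for the difference in galunisertib effect. An arm left with 1 MTO140 or parental tumour of a line was assumed to vary like the other groups. Array weights gave 7725 genes in the type comparison, 5030 against MTO68, 8709 against MTO93, 1252 and 4 in the galunisertib and control arms, 3 that passed all 5 fits and 1034 against both lines. All 20 arrays in 1 fit gave 2121, 2253 and 4309 in the same first 3 comparisons, 655 and 162 in the arms, 89 that passed all 5 fits and 752 against both lines. The line as a fixed term gave 1058 genes in the type comparison and as a random block 2 (correlation within a line 0.346). Quantile normalization gave 57 in the control arm and 24 that passed all 5 fits, of which 11 were among the 14, and median centring gave 19 in the control arm. Requiring only the type comparison and 1 sign gave 547 in place of 14. With array SD as a covariate, chosen after seeing the data, the type comparison called 2700 (1190 higher), MTO68 4225, MTO93 40, the galunisertib arm 1155, the control arm 16, all 5 fits 9 (5 among the 14) and both lines 35. With the epithelial level as a covariate, also added later, the type comparison, all 5 fits and both lines called 0, MTO68 5260 and MTO93 3; this level nearly separates the groups, and the cause was not tested. Each of the 14 genes kept its direction under every alternative run. They were chosen for 1 sign on these same values, so this adds no support. Signs turned only in genes that did not pass: Axin2 (0.36 with array weights), Gp9 (-0.185 to 0.0189 as single arrays were left out, above 0 without MTO140 control replicate 1, 0.16 with array SD, 0.38 with epithelial level), Apc (-0.0818 with array SD, -0.29 with epithelial level), and, with epithelial level, Cd8a (0.11), Pf4 (-0.44) and Tgfbr2 (-0.75). Among the 14, Bex1 in MTO140 and Sec16b in the parental tumours lay below 4.13 in a whole group. Both were given a bound beside the fitted difference, a choice made after their values were seen.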

Other observations

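Chromosome 5 of GRCm38.p6 held 52 of the genes called higher in MTO140 among 963 tested there (5.40%, against 3.12% over all genes), 27 of those called higher against both parental lines, and 3 of the 14 genes that passed all 5 fits: Ppbp, Prkg2 and Sowahb. The median difference over the chromosome was 0.05. Chromosome 5 was picked because its share called higher was the highest of all chromosomes. Chromosomes 17, 3 and 9 followed at 4.57%, 4.55% and 4.46%, and chromosome 15 was lowest at 1.09%. These counts and shares were looked at after the values were seen and were not tested.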
